A study of Mus musculus with 3 samples.

Results

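The 9 genes described here encode lysosomal cathepsins (Ctsa, Ctsb, Ctsc, Ctsd, Ctse, Ctsh, Ctsl, Ctss and Ctsz). They were taken by symbol from the 32285 genes of the count matrices, and all 9 were found. Their RNA was followed through marker-gated blood cells of 3 single-cell libraries of mouse peripheral blood mononuclear cells (PBMC). The libraries came from C57BL/6 mice: aged mice given AA for 1 month, aged mice given PBS for 1 month, and young mice given PBS for 1 month. The series title spells AA out as ascorbic acid and mentions CD8+ T cells. The labels give no age in numbers and no number of mice per library. The libraries are called aged+AA, aged and young below.

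Cathepsins are proteases that are made as inactive precursors, sorted to the lysosome and activated in its acid interior. Most are cysteine proteases (B, C, H, L, S and Z), cathepsins D and E are aspartic proteases, and cathepsin A is a serine carboxypeptidase. In immune cells they are best known for cutting antigens and the invariant chain of MHC class II molecules, and for activating the granule proteases of cytotoxic lymphocytes and neutrophils.

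After filtering, 11095 aged+AA, 9761 aged and 8766 young cells remained, with median depths of 4056, 3610 and 4456 unique molecular identifiers (UMIs, each marking 1 captured RNA molecule). Levels are CPM, the UMIs of a gene per 1000000 UMIs of a gated class in a library. Since 3′ UMI counting does not scale with transcript length, CPM values of different genes were set side by side as molecules. Each group was 1 library, so no difference has a replicate check and no test was made. Intervals are 95% and cover counting error only (exact Poisson for CPM, exact binomial for shares, exact conditional binomial for ratios). Predicted doublets were removed, and between 22 and 29 cell barcodes were shared by any pair of libraries, at most 0.297% of the smaller library. The T, B, NK and plasma gates detected all of their own markers in all 3 libraries, while the young library had no gated basophil or dendritic cell. In the T-cell gate, all 6 T markers were detected and summed to 5167, 5306 and 5280.2 CPM in the aged+AA, aged and young libraries. The aged library stood apart in its red cell and myeloid RNA. Erythroid markers summed to 2192, 6122 and 962 CPM in the T-cell gate of the aged+AA, aged and young libraries, and monocyte markers to 24.4, 135 and 12.5 CPM. The density separation that makes PBMC should remove most neutrophils, yet 188 aged+AA, 846 aged and 19 young cells were gated as neutrophils.

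RefSeq promoter windows (GRCm38.p6, 250 bases before to 50 after a transcript start) were available for 6 of the 9 genes, with 7 starts. They are shown for 3 genes because Ctsd and Ctss ran in opposite directions between blood cell classes, and Ctsa had Lamp1 and Psap among its nearest genes by Pearson r. Each is given 5′ to 3′ on the strand of its gene, with motifs found on either strand in capitals.
Ctsd promoter, chr7:142387778-142388077, minus strand: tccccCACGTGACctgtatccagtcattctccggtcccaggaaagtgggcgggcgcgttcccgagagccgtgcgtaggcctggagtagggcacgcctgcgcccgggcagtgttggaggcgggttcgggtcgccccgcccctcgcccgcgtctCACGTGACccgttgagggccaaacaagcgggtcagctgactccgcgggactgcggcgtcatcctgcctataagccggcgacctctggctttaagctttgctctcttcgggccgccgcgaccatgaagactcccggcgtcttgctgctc
Ctsa promoter of the second start, chr2:164833523-164833822, plus strand: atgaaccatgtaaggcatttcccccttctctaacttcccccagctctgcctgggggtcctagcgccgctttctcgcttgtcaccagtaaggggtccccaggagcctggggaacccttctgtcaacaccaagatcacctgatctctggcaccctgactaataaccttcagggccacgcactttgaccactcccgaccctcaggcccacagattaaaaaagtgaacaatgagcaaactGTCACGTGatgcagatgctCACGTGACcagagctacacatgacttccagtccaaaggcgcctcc
Ctss promoter, chr3:95526536-95526835, plus strand: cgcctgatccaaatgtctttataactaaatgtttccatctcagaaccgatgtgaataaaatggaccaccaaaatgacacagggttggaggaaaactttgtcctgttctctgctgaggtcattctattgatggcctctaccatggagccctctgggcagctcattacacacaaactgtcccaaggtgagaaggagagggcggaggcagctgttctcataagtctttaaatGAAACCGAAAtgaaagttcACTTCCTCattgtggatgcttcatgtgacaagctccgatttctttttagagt
The capitals of Ctsd and Ctsa mark GTCACGTG or its reverse complement, part of the element bound by TFEB and its relatives, which govern lysosomal genes. It occurred 2 times in each of these windows and in none of the other 5 of these genes' windows, while 2.25% of all 32851 RefSeq mouse promoter windows held it. Its core CACGTG, contained in every such match, also occurred in the Ctsl window, and 7.15% of all windows held it. The capitals of Ctss mark the interferon-stimulated response element, held by 3.44% of all windows, and the reverse complement of GAGGAAGT, a motif of the myeloid and B-cell factor PU.1, held by 3.20%. GAGGAAGT was also found in the Ctsc window. A match describes these letters and does not show binding.

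Ctss (chr3:95526786-95556403 in the GENCODE M21 annotation of GRCm38), the cysteine protease that makes the last cuts in the invariant chain of antigen-presenting cells, had the highest RNA of the 9 in B cells and in classical monocytes. Classical monocytes held 1650.1 CPM in the aged+AA library (25 cells) and 1795 CPM in the aged library (738 cells). The young library had only 3 such cells. Non-classical monocytes held 1491, 1494 and 1587 CPM in the aged+AA, aged and young libraries. B cells followed with 489.9, 461 and 467 CPM. T cells held 124, 126 and 129 CPM, and natural killer (NK) cells 29.4, 30.7 and 33.1 CPM. The range over libraries of each of these 5 classes did not overlap that of the next, although the counting interval of the 25 aged+AA classical monocytes (1494 to 1818 CPM) reached the non-classical values. For the NK gate the free RNA of the suspension, estimated from haemoglobin UMIs, would give 5.56, 14.1 and 1.46 of those CPM. After thinning every cell to 1000 UMIs, Ctss was seen in 38.6%, 37.2% and 36.4% of the aged+AA, aged and young B cells, against 2.67%, 2.13% and 1.77% of NK cells. Unthinned, these shares were 82.5%, 75.8% and 79.3% of B cells, against 8.33%, 10.5% and 9.79% of NK cells. Thinning left out 7, 14 and 3 shallower B cells and 6, 3 and 3 NK cells.

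Ctsh (chr9:90054152-90076089), an aminopeptidase, was high in B cells and classical monocytes and near 0 in NK cells. It stood at 381, 323 and 317 CPM in the B cells of the aged+AA, aged and young libraries, and at 565 and 597 CPM in aged+AA and aged classical monocytes. The few dendritic cells also held it, with 130 Ctsh UMIs among 188890 UMIs of 20 aged cells. The 4 aged+AA dendritic cells held 39 among 40459. In NK cells 1, 3 and 0 UMIs were counted, and a count of 0 in the young library allows up to 3.21 CPM. B cells held 93.2% of all Ctsh UMIs of gated cells in the aged+AA library, 42.2% in the aged library and 95.9% in the young library. Ctsz (chr2:174427493-174439039), a carboxypeptidase, was closest to it. Its level was 288, 252 and 291 CPM in the B cells of the aged+AA, aged and young libraries, and 504 and 632 CPM in aged+AA and aged classical monocytes. In plasma cells, the antibody-secreting cells, Ctsz led the 9 in both aged libraries, with 190.0 CPM in the aged+AA library (40 cells) and 228 CPM in the aged library (42 cells). The young library had 3 plasma cells, with 8 UMIs of Ctsz and 10 of Ctss.

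Ctsb (chr14:63122462-63145923), an endopeptidase that also trims dipeptides from carboxyl ends, was highest in non-classical monocytes. These held 1712, 1904 and 1652 CPM in the aged+AA, aged and young libraries, more than their own Ctss RNA in each library. Classical monocytes held 702 CPM in the aged+AA library and 599 CPM in the aged library, so the order of Ctsb and Ctss was the reverse there. Ctsc (chr7:88278085-88310888), the dipeptidyl peptidase that activates granzymes and neutrophil serine proteases, was split the other way between the monocyte classes. It stood at 573 and 627 CPM in aged+AA and aged classical monocytes. Non-classical monocytes held 191, 176 and 219 CPM in the aged+AA, aged and young libraries. Among lymphocytes Ctsc was highest in NK cells, at 207, 149 and 189 CPM. Ctsl (chr13:64359337-64370890), an endopeptidase known for cutting the invariant chain in thymic epithelium, was low in lymphocytes. It stood at 107 and 72.9 CPM in aged+AA and aged neutrophils, and at 72.6 and 103 CPM in their classical monocytes. The 20 aged dendritic cells held 24 Ctsl UMIs among 188890 UMIs.

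The aspartic and serine members had other patterns. Ctsd (chr7:142375911-142388038), the main aspartic endopeptidase of lysosomes, was the leading one of the 9 in basophils, NK cells, neutrophils and effector T cells. Basophils held 1477 CPM in the aged+AA library (21 cells) and 1612 CPM in the aged library (103 cells). The young library had no gated basophil, which allows a share of up to 0.0421% of its cells. NK cells held 675, 625 and 613 CPM in the aged+AA, aged and young libraries. B cells held 23.5, 29.9 and 22.1 CPM, the lowest Ctsd level of the classes with at least 50 cells in all 3 libraries. Ctsa (chr2:164832873-164841032), the carboxypeptidase that protects neuraminidase 1 and beta-galactosidase in the lysosome, was more even. It ranged between 305 and 324 CPM over the classical and non-classical monocytes with at least 25 cells, stood at 283 CPM in 50 aged monocytes assigned to neither class, and ranged between 43.0 and 89.6 CPM over T, B and NK cells of the 3 libraries. Ctse (chr1:131638306-131675505), an aspartic protease known from stomach and lymphoid cells, was low in the T, B and NK gates, at most 13.1 CPM in the young B cells.

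**Figure D1:**
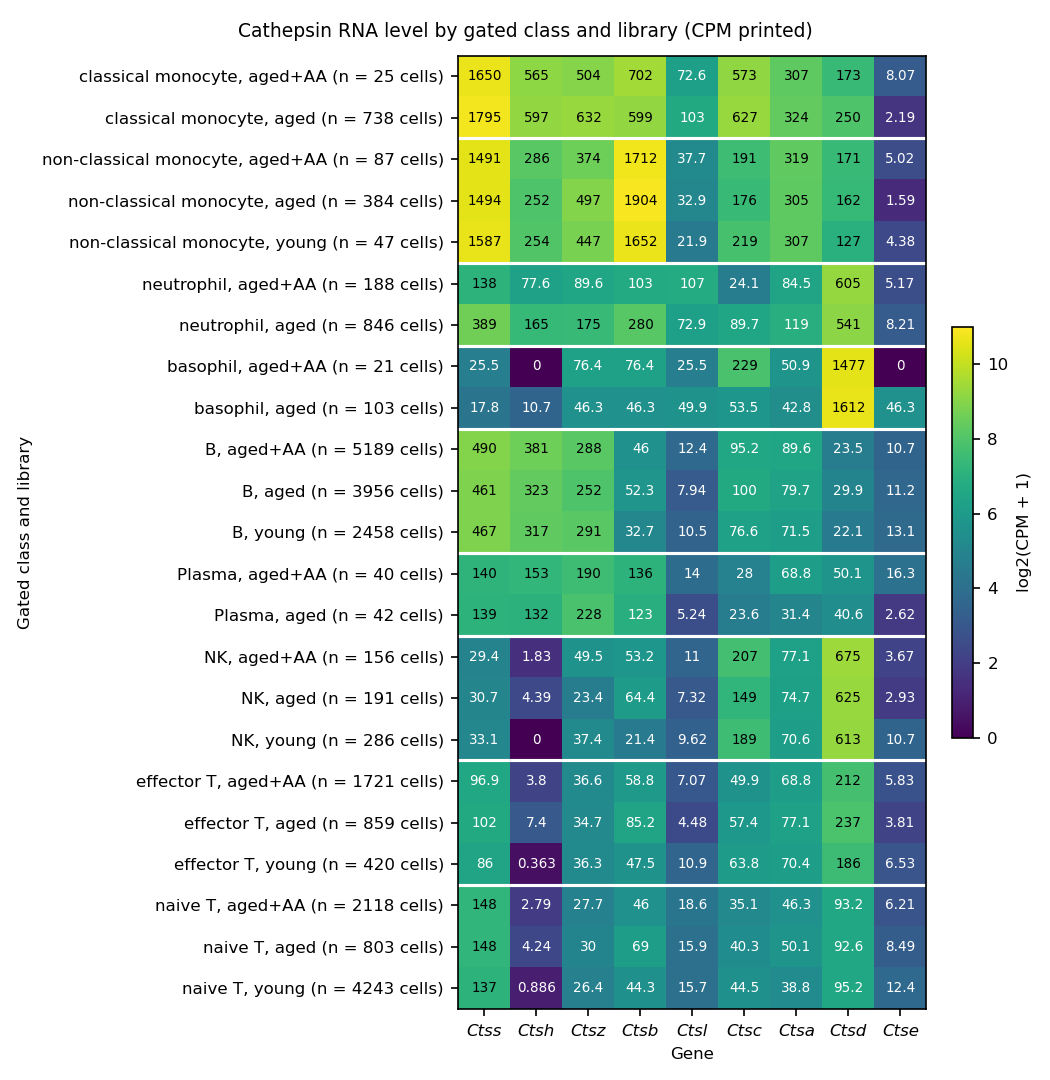
RNA level of the 9 cathepsins (columns) in gated classes of the aged+AA, aged and young libraries (rows, with the number of cells). Rows have at least 20 cells, and dendritic cells, monocytes assigned to neither class and the CD8 and CD4 T gates are not shown. Printed values are CPM and colour is log2(CPM + 1). Ctss, Ctsh and Ctsz were high in monocytes and B cells, Ctsb peaked in non-classical monocytes at 1652 to 1904 CPM, and Ctsd was the highest in basophils, NK cells and neutrophils.

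Across the 21 pools of a gated class in a library with at least 50 cells, Ctsh and Ctsz were the most alike of the 36 pairs (Pearson r = 0.949 of log2(CPM + 1)). Ctsa with Ctse (-0.62) and Ctsd with Ctss (-0.54) were the least alike. The pools share libraries and depth, and some are subsets of others, so r is a description. Among 5549 genes averaging at least 20 CPM, the nearest to Ctsa were Lamp1, a lysosomal membrane glycoprotein (r = 0.967), Psap, the precursor of saposins (r = 0.959), and Dleu2 (r = 0.957). For Ctss they were Lgmn, the lysosomal asparaginyl endopeptidase legumain (r = 0.936), Ibtk (r = 0.924) and Cd2ap (r = 0.895). For Ctsh they were Rnase6, a secreted ribonuclease (r = 0.976), Apoe, the apolipoprotein E gene (r = 0.974), and March1, a ubiquitin ligase that removes MHC class II from the surface (r = 0.968). For Ctsz they were BC028528 (r = 0.976), the endolysosomal nuclease gene Pld4 (r = 0.975) and Cd180 (r = 0.966), a B-cell and myeloid surface receptor. Ctsb was nearest to Zfyve9 (r = 0.962), Mrpl14 (r = 0.955) and the non-classical monocyte receptor Adgre4 (r = 0.955). Ctsc was nearest to Commd1 (r = 0.922), Srsf9 (r = 0.909) and Aph1a (r = 0.896), a gamma-secretase subunit. Ctsd was nearest to Slc9a3r1 (r = 0.949), Arrb2 (r = 0.942) and Fosl2 (r = 0.931). Ctsl was nearest to Ninj1 (r = 0.936), the neutrophil surface protein Cd177 (r = 0.918) and Taldo1 (r = 0.915). Ctse had the loosest neighbours, Aff4 (r = 0.839), Ppp1r15a (r = 0.812) and Fam107b (r = 0.802).

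The cell classes that supplied cathepsin RNA differed between the libraries. Myeloid cells were 338 of the aged+AA cells (3.05%), 2155 of the aged cells (22.1%) and 75 of the young cells (0.856%). They held 8.84% of the UMIs of the 9 genes in gated cells of the aged+AA library, 69.3% in the aged library and 5.40% in the young library. B cells held 62.3%, 22.4% and 46.4%, and T cells 26.1%, 6.74% and 44.6%. T cells held 72.8%, 23.4% and 77.9% of the Ctsd UMIs in the aged+AA, aged and young libraries, and 46.4%, 7.05% and 78.4% of the Ctsl UMIs.

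**Figure D2:**
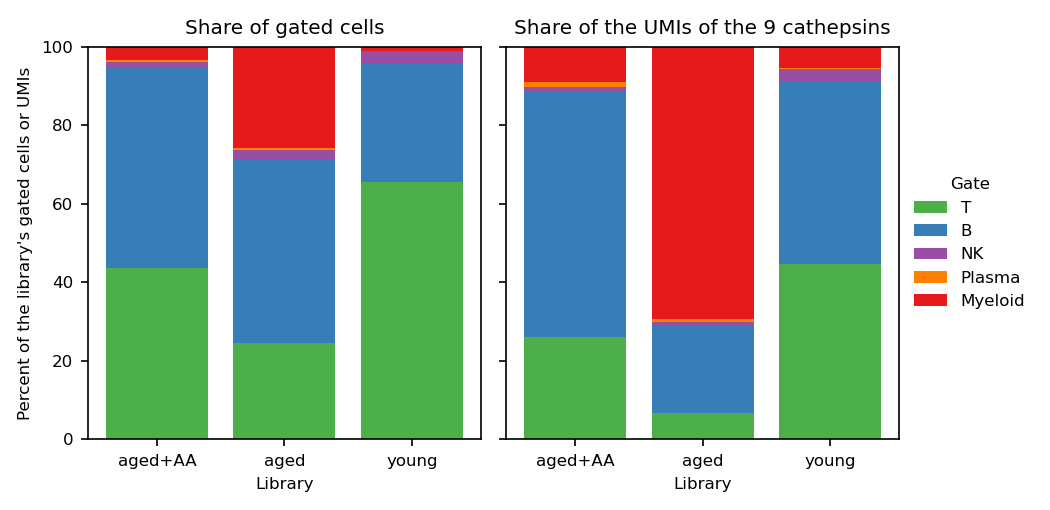
Share of the gated cells (left) and of the UMIs of the 9 cathepsins in gated cells (right) held by each gate, in percent, for the aged+AA, aged and young libraries. Myeloid cells (red) held 69.3% of the cathepsin UMIs in the aged library, 8.84% in the aged+AA library and 5.40% in the young library.

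Per gated cell, the aged+AA library had fewer UMIs than the aged library for 8 of the 9 genes, and for the same 8 the aged library exceeded the young one. Both comparisons share the aged library. Ctsb averaged 0.344 UMIs per gated aged+AA cell and 1.36 per aged cell (ratio 0.253). Against 0.252 in the young library, the aged value was 5.38-fold higher. Ctss averaged 1.44 UMIs in the aged+AA library, 3.15 in the aged library and 1.06 in the young library. Ctse was the exception, at 0.0393 UMIs per cell in the aged+AA library, 0.0335 in the aged library and 0.0552 in the young library. The same ratios were then computed with the 5 gated classes at equal shares, those of the second library of each comparison. The aged over young ratio was then 1.46 for Ctsb, 0.919 for Ctss, 0.982 for Ctsh, 0.877 for Ctsz and 1.08 for Ctsc. It was 1.38 for Ctsd, 1.26 for Ctsa and 0.582 for Ctse, against 1.76, 2.57 and 0.606 as measured. It was 0.653 for Ctsl, whose ratio as measured was 2.37. The aged+AA over aged ratio moved less for Ctsb, Ctss and Ctsc, to 0.702, 0.649 and 0.506, against 0.253, 0.457 and 0.375 as measured. It moved more for Ctsd and Ctse, to 0.862 and 1.08, against 0.621 and 1.18 as measured. Subclasses of myeloid cells were not equalised in this step, and UMIs per cell were not scaled for depth. Myeloid cells had a median of 2777 UMIs in the aged+AA library and 4626 in the aged library. On CPM, myeloid Ctsb was not lower in the aged+AA library (743 against 710). Ctss (901 against 1368) and Ctsc (194 against 411) were lower there.

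**Figure D3:**
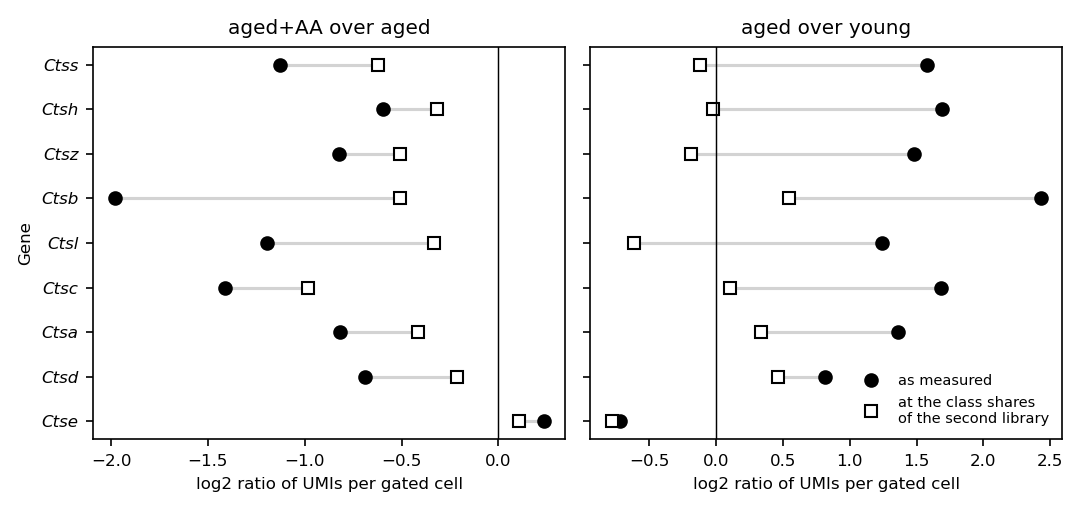
log2 ratio of UMIs per gated cell for each cathepsin, aged+AA over aged (left) and aged over young (right), as measured (filled circles) and with the 5 gated classes at the shares of the second library (open squares). For aged over young, Ctsb moved to 1.46-fold from the measured 5.38-fold, and Ctss, Ctsh and Ctsz moved to just below 1.

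Within each gate, levels were compared as CPM ratios centred on the median gene with at least 50 counts in the 2 libraries together, and a gene counted as past the fold at a centred ratio of 1.5 or more in either direction. The median gene had a log2 ratio of -0.19 in T, -0.15 in B, -0.02 in NK and 0.00 in myeloid cells for aged+AA over aged, and of 0.38, 0.28, 0.07 and 0.01 for aged over young. For aged+AA over aged, 2 of 9 cathepsins were past the fold in T cells (11.8% of all 10514 genes), 1 of 9 in B cells (9.37%), 0 of 4 in NK cells (13.1%) and 4 of 9 in myeloid cells (27.5%). For aged over young, they were 3 of 9 in T cells (25.0% of all 10445 genes), 1 of 9 in B cells (18.4%), 2 of 6 in NK cells (17.9%) and 6 of 9 in myeloid cells (41.1%). The counts of members are read against these shares of all genes, and none is taken as particular to the cathepsins.

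**Figure D4:**
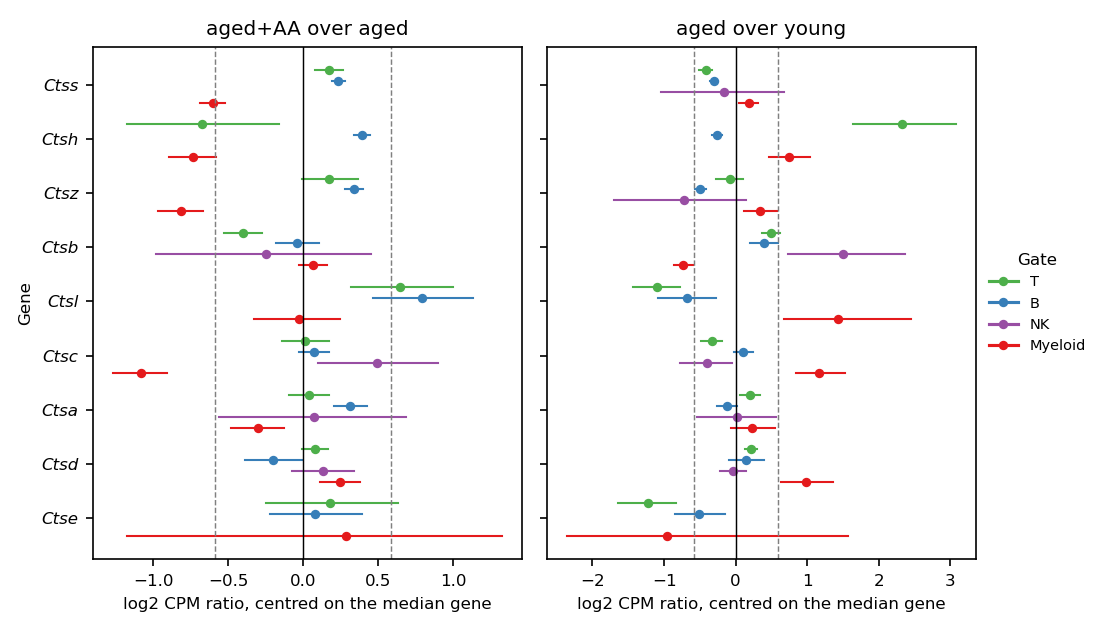
log2 CPM ratio of each cathepsin in T, B, NK and myeloid gates, centred on the median gene, for aged+AA over aged (left) and aged over young (right). Points are ratios, horizontal lines 95% counting intervals and dashed lines the 1.5-fold limits. Members with under 50 counts are left out. Ctsl was to the right in T and B cells for aged+AA over aged and to the left in both for aged over young.

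Ctsl was the member past the fold in both lymphocyte gates. In T cells it had 334, 96 and 442 UMIs in the aged+AA, aged and young libraries, or 12.98, 9.44 and 15.5 CPM. In B cells it had 12.4, 7.94 and 10.5 CPM, from 256, 109 and 101 UMIs. The aged library was thus the lowest of the 3 in both gates. The centred ratio of aged+AA over aged was 1.57 (1.25 to 1.99) in T cells and 1.73 (1.38 to 2.19) in B cells. That of aged over young was 0.469 (0.370 to 0.583) in T cells and 0.622 (0.470 to 0.824) in B cells. Without centring, the aged over young CPM ratio in B cells was 0.757 (0.573 to 1.00).

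Ctsb ran the other way in lymphocytes. T cells held 53.9, 81.3 and 44.3 CPM in the aged+AA, aged and young libraries, B cells 46.0, 52.3 and 32.7 CPM, and NK cells 53.2, 64.4 and 21.4 CPM. The aged library was the highest in all 3 gates, and also in CD8 T cells (42.1, 54.3 and 35.6 CPM) and CD4 T cells (84.4, 125 and 55.8 CPM). The centred ratio of aged over young was 1.41 (1.29 to 1.54) in T cells, 1.31 (1.15 to 1.51) in B cells and 2.84 (1.66 to 5.15) in NK cells, the last resting on 44 against 20 UMIs. Past the fold were NK cells and, in a finer split, CD4 T cells, at 1.72 (1.46 to 2.02). For aged+AA over aged the ratio was 0.758 (0.695 to 0.827) in T cells and 0.973 (0.882 to 1.07) in B cells. In NK cells it was 0.843 (0.506 to 1.37), from 29 against 44 UMIs, so the order of these libraries there lies within counting error. Monocyte markers, given above for the T-cell gate, moved in the same order. Free RNA, as estimated, would give 1.13, 3.95 and 0.465 CPM of Ctsb in the T cells of the aged+AA, aged and young libraries. The measured levels were 53.9, 81.3 and 44.3 CPM. The estimate uses the haemoglobin UMIs of the median cell. The part of monocyte RNA in these Ctsb levels was not tested.

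Ctsh in T cells lay closer to its free RNA estimate. It had 82, 59 and 25 UMIs in the aged+AA, aged and young libraries, or 3.19, 5.80 and 0.877 CPM, and its centred ratios were 0.627 (0.444 to 0.893) for aged+AA over aged and 5.01 (3.13 to 8.45) for aged over young. Free RNA would give 2.61, 4.12 and 0.452 CPM of Ctsh in those gates, more than 0.5 of the measured level in each library. Taking that estimate off leaves 0.579, 1.68 and 0.426 CPM. In CD8 T cells Ctsh stood at 2.99, 5.71 and 0.959 CPM, again highest in the aged library.

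Ctse was lower in the T cells of both aged libraries, at 6.06 CPM in the aged+AA library and 6.10 CPM in the aged library, against 10.98 CPM in the young library. The centred ratio of aged over young was 0.428 (0.319 to 0.560), from 62 against 313 UMIs, and that of aged+AA over aged was 1.13 (0.842 to 1.55). In CD8 T cells, the cells the study's title names, the aged over young ratio of Ctse was 0.316 (0.173 to 0.516) and that of Ctsl 0.495 (0.364 to 0.657), and these were the 2 of 8 members past the fold there (21.3% of all genes). Ctsl had 12.7, 12.0 and 19.3 CPM in the CD8 T cells of the aged+AA, aged and young libraries, and the centred ratio of aged+AA over aged was 1.18 (0.885 to 1.62), short of the fold. For aged+AA over aged, 2 of 9 members were past the fold in CD8 T cells (10.6% of all genes), Ctse at 1.59 (0.956 to 2.93) and Ctsh at 0.584 (0.361 to 0.975). In CD4 T cells Ctsb, Ctse and Ctsl were past the fold for aged over young, 3 of 8 (25.0% of all genes), and Ctsl alone for aged+AA over aged, 1 of 7 (12.1%).

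T cells were also divided by their RNA of naive markers (among them Ccr7, Lef1 and Dapl1) and of effector or memory markers (Ccl5, Nkg7, Gzmk, Cxcr3, Id2), none of them a cathepsin. Effector-gated cells were 1721 in the aged+AA library, 859 in the aged library and 420 in the young library, and naive-gated cells 2118, 803 and 4243. Ctsd was the cathepsin most raised in effector-gated cells of every library. It stood at 212 CPM in effector-gated and 93.2 CPM in naive-gated cells of the aged+AA library, at 237 and 92.6 CPM in those of the aged library, and at 186 and 95.2 CPM in those of the young library. The naive-gated values thus lay within 92.6 to 95.2 CPM in all 3 libraries, while the effector-gated ones lay between 186 and 237 CPM. The centred log2 ratio was 1.09, 1.26 and 0.86 in the aged+AA, aged and young libraries.

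Ctss and Ctsl, the cathepsins that cut the invariant chain, ran the other way. Ctss stood at 96.9, 102 and 86.0 CPM in effector-gated cells of the aged+AA, aged and young libraries, against 148, 148 and 137 CPM in naive-gated cells. Ctsl stood at 7.07, 4.48 and 10.9 CPM in effector-gated cells, against 18.6, 15.9 and 15.7 CPM in naive-gated cells. Legumain, a cysteine protease of another family that acts on the same chain, was low in the same cells, with Lgmn at 2.03, 3.36 and 1.09 CPM in effector-gated and 12.2, 11.1 and 16.5 CPM in naive-gated cells. Ctsa was higher in effector-gated cells of all 3 libraries, at 68.8, 77.1 and 70.4 CPM against 46.3, 50.1 and 38.8 CPM, and passed the fold in the young library. Ctsc, which matures the granzymes, was moderately higher, at 49.9, 57.4 and 63.8 CPM against 35.1, 40.3 and 44.5 CPM. Its substrate genes differed far more, since Gzma stood at 528, 722 and 288 CPM in effector-gated cells, against 5.31, 9.81 and 4.06 CPM in naive-gated cells. Between effector- and naive-gated cells, 3 of 9 cathepsins were past the fold in the aged+AA library (18.7% of all genes), 3 of 7 in the aged library (18.2%) and 5 of 8 in the young library (21.8%).

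**Figure D5:**
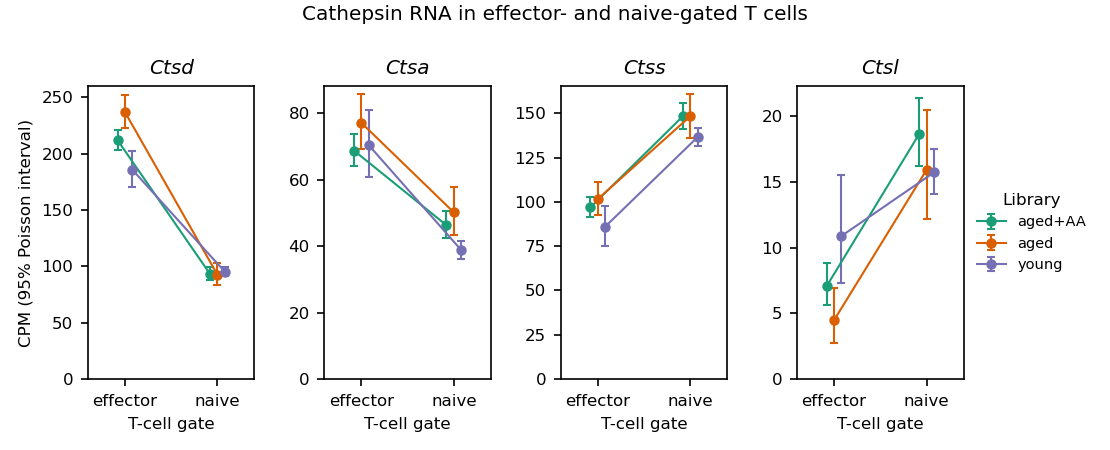
CPM of Ctsd, Ctsa, Ctss and Ctsl in effector-gated and naive-gated T cells of the aged+AA, aged and young libraries, with 95% Poisson intervals. Ctsd lay at 186 to 237 CPM in effector-gated cells and at 92.6 to 95.2 CPM in naive-gated cells, and Ctss and Ctsl were lower in effector-gated cells of each library.

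The T-cell states were also set to the young library's shares, on CPM ratios that were not centred. The aged over young ratio of Ctsd was then 1.04, against 1.52 as measured. On the centred scale used above, Ctsd was 1.16 (1.09 to 1.23) in all T cells. It was 0.775 (0.689 to 0.867) in naive-gated cells and 1.04 (0.932 to 1.15) in effector-gated cells. That of Ctsl was 0.881, against 0.609 as measured, and that of Ctse was 0.708, against 0.555. That of Ctsb was 1.69, against 1.84 as measured, and Ctsb stood at 46.0, 69.0 and 44.3 CPM in the naive-gated cells of the aged+AA, aged and young libraries taken alone. In naive-gated cells taken alone, 0 of 8 members were past the fold for aged+AA over aged (12.4% of all genes) and 1 of 8 for aged over young, Ctse (20.1%). In effector-gated cells they were 3 of 9 (11.8%) and 1 of 7 (21.3%). In these cells Ctsl had a centred ratio of 0.337 (0.180 to 0.609) for aged over young, resting on 20 UMIs in the aged library and 30 in the young library.

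In B cells Ctss, Ctsh and Ctsz, the leading cathepsins of that gate, stayed short of the fold in both comparisons. The centred ratios of aged+AA over aged were 1.18 (1.14 to 1.21) for Ctss, 1.31 (1.26 to 1.36) for Ctsh and 1.26 (1.21 to 1.32) for Ctsz. Those of aged over young were 0.811 (0.781 to 0.843), 0.837 (0.799 to 0.877) and 0.711 (0.677 to 0.748). The aged library was the lowest of the 3 on the centred scale for each of them. On plain CPM Ctsh was not lowest in the aged library (381, 323 and 317 CPM in the aged+AA, aged and young libraries).

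The myeloid gate held different cells in each library. Classical monocytes were 25 of 338 aged+AA myeloid cells, 738 of 2155 aged ones and 3 of 75 young ones. Over the whole gate, Ctsc stood at 194, 411 and 181 CPM in the aged+AA, aged and young libraries, Ctsh at 259.6, 432 and 256 CPM, Ctsz at 280.1, 493 and 388 CPM, and Ctss at 901, 1368 and 1200.3 CPM. These were the 4 members past the fold for aged+AA over aged, all lower. For aged over young, Ctsc, Ctsd, Ctsh and Ctsl were past the fold upwards and Ctsb and Ctse downwards. The Ctse ratio, 0.515 (0.194 to 2.97), rested on 61 UMIs in the aged library and 3 in the young library. Its interval spans 1, so these counts do not settle its direction. Ctsb stood at 743, 710.4 and 1175 CPM, the young gate being mostly non-classical monocytes (47 of 75).

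Within non-classical monocytes, the 1 monocyte class with enough cells in both libraries, 0 of 8 members were past the fold for aged+AA over aged (13.4% of all genes). No test was made at 1 library a group, so no p-value goes with that count. Ctsc had a centred ratio of 1.06 (0.812 to 1.36), Ctsh of 1.11 (0.894 to 1.36), Ctss of 0.971 (0.887 to 1.06) and Ctsz of 0.734 (0.611 to 0.870) there. The ratios over the whole gate, 0.472 for Ctsc, 0.602 for Ctsh, 0.658 for Ctss and 0.569 for Ctsz, lay outside these intervals. The intervals cover counting error only, and these cells are part of that gate. The cause of the difference was not tested. The 25 aged+AA classical monocytes held 573 CPM of Ctsc and 565 CPM of Ctsh, against 627 and 597 CPM in the 738 aged ones.

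In neutrophils 6 of 8 members were past the fold for aged+AA over aged (23.6% of all genes). Ctsb, Ctsc, Ctsh, Ctss and Ctsz were lower and Ctsl was higher. Monocyte RNA moved with these values. Of the neutrophil-gated cells, 43 of 188 in the aged+AA library and 257 of 846 in the aged library held a UMI of a core monocyte marker. Core markers are the monocyte list without Lyz2. The cells without such a UMI had medians of 2184 and 2201 UMIs, and can still hold monocyte RNA. In the cells without one, Ctss stood at 117 CPM in the aged+AA library and 53.5 CPM in the aged library, against 138 and 389 CPM in all neutrophil-gated cells. Ctsb stood at 87.9 and 61.3 CPM in the cells without such a UMI, against 103 and 280.1 CPM in all. For Ctss and Ctsb the aged+AA value was thus the higher of the 2 in cells without such a UMI. These values rest on 52 and 89 UMIs of Ctss and 39 and 102 of Ctsb. Ctsz likewise stood at 83.4 and 60.1 CPM in those cells, from 37 and 100 UMIs, against 89.6 and 175 CPM in all. Ctsh stood at 78.9 CPM in the aged+AA library and 90.1 CPM in the aged library there, from 35 and 150 UMIs. Ctsl stood at 126 and 79.9 CPM, from 56 and 133 UMIs. No interval was computed for this division, so the order of the libraries is given without its counting error. Ctsc had 7 and 18 UMIs left, too few to order the libraries. Ctsd stood at 604 CPM in the aged+AA library and 614 CPM in the aged library in cells without such a UMI, against 605 and 541 CPM in all. This division was made after the levels had been seen.

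Barcodes with at least 50% haemoglobin UMIs were kept out of the gates, and numbered 2514 in the aged+AA library, 7689 in the aged library and 1412 in the young library. Among their other RNA Ctsb was the leading cathepsin, at 436, 504 and 591 CPM of the UMIs without haemoglobin. Ctse stood at 79.4, 60.8 and 169 on that scale, while its level in the T, B, NK and whole myeloid gates was at most 13.1 CPM of all UMIs. Within the myeloid gate, the 103 aged basophils held 13 Ctse UMIs among 280475 UMIs. The 40 aged+AA plasma cells held 14 among 857733. In human, cathepsin E is known from the red cell membrane.

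Genes that act with the cathepsins were counted in the same way. Of the 28 hydrolases and their partners, 27 had enough counts in T cells, and 0 were past the fold upwards and 3 downwards for aged+AA over aged, against 5 and 4 for aged over young. Of all genes in T cells, 5.51% were past it upwards and 6.31% downwards for aged+AA over aged, and 13.6% and 11.4% for aged over young. In myeloid cells all 28 had enough counts, with 1 upwards and 8 downwards for aged+AA over aged, and 10 and 2 for aged over young. The shares of all genes there were 13.4% and 14.1% for aged+AA over aged, and 21.8% and 19.3% for aged over young. The medians of the centred log2 ratios there were -0.36 and 0.35, and those of the 9 cathepsins -0.30 and 0.33. Psap, whose product is cut into the saposins, stood at 1179.7 CPM in aged+AA and 1806 CPM in aged myeloid cells, and the cholesterol carrier gene Npc2 at 451 and 909 CPM. In non-classical monocytes alone, 19 of the hydrolase genes had enough counts for aged+AA over aged, with 1 upwards and 0 downwards (13.4% of all genes either way) and a median of 0.13. Of 15 proton pump genes, which acidify the lysosome, 14 had counts in T cells and 0 and 1 were past the fold in the 2 comparisons, and of 12 lysosomal membrane genes 10 had counts and 0 were past it in either.

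Of 13 cathepsin inhibitors, 7 had enough counts in myeloid cells, with 2 upwards (13.4% of all genes) and 1 downwards (14.1%) for aged+AA over aged. In neutrophils alone, 1 of 7 was upwards and 3 downwards (23.6% of all genes either way). In non-classical monocytes alone, 0 of 3 were past the fold (13.4% of all genes either way), with a median centred log2 ratio of -0.46. Cstb, the cytosolic inhibitor stefin B, stood at 119 CPM in aged+AA and 201 CPM in aged myeloid cells, and the neutrophil stefin gene Stfa2l1 at 153 and 84.3 CPM. In T cells Cst7, the cystatin F gene whose product inhibits cathepsin C in cytotoxic cells, stood at 51.9, 35.2 and 16.4 CPM in the aged+AA, aged and young libraries. In the aged+AA library it stood at 93.8 CPM in effector-gated and 15.0 CPM in naive-gated cells. For aged over young, 7 inhibitors had enough counts in T cells, with 2 upwards (13.6% of all genes) and 1 downwards (11.4%). In effector-gated cells alone, 1 of 7 was upwards and 3 downwards (21.3% of all genes either way). The median centred log2 ratio of the inhibitors was 0.37 in all T cells and -0.50 in effector-gated ones. Of 8 granule proteases, 4 had enough counts in T cells and all 4 were past the fold upwards for aged over young (13.6% of all genes), with Gzma at 323 CPM in the aged library and 31.9 CPM in the young library. Effector-gated cells were 859 of 2052 aged and 420 of 5404 young T cells. In effector-gated cells alone, 3 of 4 were past the fold upwards (21.3% of all genes either way), and the list's median centred log2 ratio was 1.06, against 2.92 in all T cells. Gzmk, on this list, is also a marker of the effector gate, so its level in these cells is partly set by the gate. Ctsc itself stood at 48.4 and 46.9 CPM in all aged and young T cells. Class II presentation genes numbered 10, of which 7 were past the fold upwards for aged+AA over aged in myeloid cells (13.4% of all genes) and 0 downwards (14.1%), with Cd74, the invariant chain gene, at 1569.5 CPM in the aged+AA and 1021 CPM in the aged gate. In non-classical monocytes alone the direction was the opposite, with 0 of 6 upwards and 4 downwards (13.4% of all genes either way) and a median centred log2 ratio of -1.28, against 0.72 over the whole gate. In neutrophils alone, 6 of 8 were past the fold upwards and 1 downwards (23.6% of all genes either way). Ctss, which cuts the invariant chain, was lower in the aged+AA library over the whole gate. The 6 B markers summed to 439.6 CPM in the aged+AA myeloid gate and 139.5 CPM in the aged one, and their part in the class II values was not tested. In T cells 5 of the 8 class II genes with counts were past the fold upwards for aged over young (13.6% of all genes), with Cd74 at 107 and 33.4 CPM in the aged and young libraries, and B markers there summed to 62.8 and 20.5 CPM.

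All 9 genes are protein coding. In the annotation Ctsa overlaps Neurl2 and Pltp, Ctsb Fdft1, Ctsc Gm26522, Ctsl Gm47123 and Ctsz Nelfcd on the opposite strand, and Ctsd overlaps Gm49369 on its own strand. Ctsl and Ctss each overlap a processed pseudogene on their own strand. How the counting treated these overlaps was not given in the sources used here, while Ctse and Ctsh overlap no gene.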

How the data were processed

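Single-cell RNA of blood mononuclear cells was measured in 3 libraries, 1 per group. The authors deposited unfiltered UMI counts per gene and barcode, which the matrix header marks as Cell Ranger 4 output. mm10 and Seurat 3.1.0 come from the submitters' processing notes. Whether counting used strand was not given in the sources used here. The libraries held 80424480 (aged+AA), 94944551 (aged) and 64496639 (young) UMIs.

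Cells were called from the counts in the manner of Cell Ranger. Barcodes above 1 in 10 of the 99th percentile of the top 5000 were kept, and others with at least 500 UMIs where the profile differed from free RNA (ranks 45001 to 90000, 10000 draws, FDR 0.01). A minimum of 250 genes and a limit of 10% on mitochondrial UMIs applied. Scrublet doublets (464, 422 and 374 cells) were removed. Gates used marker UMIs (1 naive T marker is not reported here by name), and cells with over 10% haemoglobin UMIs were set aside. UMIs were summed per gate and library to CPM. Ratios were centred on the median gene with at least 50 counts in gates of at least 50 cells in both libraries, and a centred ratio of 1.5 either way was past the fold. Correlations used log2(CPM + 1).

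All 9 members were named. From each list, the genes with the most UMIs (up to 3) and the largest ratios (up to 2) were open to naming. The members and lists were chosen with earlier results of these data known, and gate limits were set on marker counts after seeing them, without reading cathepsin counts. The ratio step was tested on simulated data. Alternatives covered scaling, count minimum, mitochondrial limit, doublets, cell calling, free RNA, gate, thinning, denominator and measure of likeness. Python 3.11.15, numpy 2.4.6, scipy 1.17.1, scanpy 1.11.5 and matplotlib 3.10.9 were used.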

Additional observations from a re-analysis of the deposited data

Results flagged for a closer look

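For aged over young, 2 cathepsins lay past the fold in opposite directions in different gates, and these differences between gates were not tested. Ctsb had a centred log2 ratio of 1.51 in NK cells and -0.73 in myeloid cells, 2.24 apart. Ctsl had one of 1.43 in myeloid cells and -1.09 in T cells, 2.52 apart, and of -0.69 in B cells, 2.11 apart from the myeloid value. The NK value rests on 44 UMIs in the aged library and 20 in the young library, and the young myeloid value of Ctsl on 12 UMIs. The aged and young myeloid gates held 738 and 3 classical monocytes.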

How the results depend on the processing

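No paired analysis was possible because each group has 1 library. Of 80 counts of members past the fold under the alternatives listed for them, 66 were within 1.5 times the count reported. Of 619 centred ratios under those alternatives 542 kept their place, 77 moved and 0 reversed, and of 648 levels 76 moved. For aged+AA over aged in T cells, the count was 1 with scaling on other genes, with doublets kept, with thinning and with free RNA subtracted, and 0 in naive-gated cells alone, against 2. In NK cells it was 1 at 20 counts or more, 3 at 1 count or more and 1 with the stricter gate, against 0. In non-classical monocytes alone it was 0, against 4 in the myeloid gate, and there Ctsc (0.086) and Ctsh (0.15) reversed on the centred log2 scale, against -1.08 and -0.73. For aged over young, the T-cell count was 6 without centring and 1 in naive-gated or effector-gated cells alone, against 3, and the B-cell count was 2 with thinning, against 1. The NK count was 4 at 1 count or more, 1 at 5% mitochondrial UMIs, 0 with the stricter gate, 0 with thinning and 1 with free RNA subtracted, against 2. The single-class alternatives were chosen after seeing the data. As a share of all called cells' cathepsin UMIs, T, B and myeloid cells held 24.4%, 58.2% and 8.25% in the aged+AA library, 5.96%, 19.8% and 61.3% in the aged library, and 41.2%, 42.8% and 4.98% in the young library. NK cells held 0.735% in the aged and 3.14% in the young library, and plasma cells 0.607% in the aged library. By Spearman's rho, 1 of the 3 nearest genes was shared for Ctsa, Ctse, Ctsh and Ctss, and 0 for Ctsb, Ctsc, Ctsd, Ctsl and Ctsz. For Ctsa the shared gene was Dleu2, and Lamp1 and Psap were not among the 3 nearest by rho. The causes of these moves were not tested. Members under 50 counts, mostly in NK cells, could not be ordered at this depth.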
